A study of Mus musculus with 12 samples.

Results

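The genes of the proteasome, the large protease that degrades proteins tagged with ubiquitin, were followed in RNA sequencing of 12 mouse livers. They were chosen by symbol, as Psma, Psmb, Psmc, Psmd or Psme followed by a digit, leaving out Psmb8, Psmb9 and pseudogenes. The rule found 44 of the 57010 genes in the table, 17 of the core particle (Psma and Psmb) and 27 regulatory (Psmc, Psmd and Psme). All mice were male C57BL/6J of WT genotype on a normal diet, aged 6 weeks at the start, with 7 days of acclimatization. The 6 control mice are labelled No treatment, and the labels do not say whether they were gavaged with saline. The other 6 mice received selenium-enriched A. oryzae A02, a fungus, by daily gavage in saline at 0.5 mg selenium per kg. No group here had the fungus without added selenium, so the parts of each cannot be told apart. The labels give 8 weeks of treatment in one place and 14 weeks in another. The protocol speaks of 10 mice per group, of which 6 per group have a library here, numbered as separate liver samples, and p-values measure the spread between these samples.

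Levels are given as TPM, a measure of transcript abundance that is set per transcript length and sums to the same total in every library. Read counts and depth are unknown, so no counting error can be given. A gene entered the test when it reached 1 TPM in at least 6 of the 12 libraries, which kept 9980 genes, among them 15 core and 25 regulatory members. The other 4 members lay below that level. Psma8, the testis form of an alpha subunit, had mean levels of 0.312 ± 0.159 TPM (control) and 0.268 ± 0.161 TPM (selenium; SD, n = 6 per group, as for all values below). Psmb11, the thymus form of a catalytic subunit, was listed at 0 in all libraries except control 5, at 0.02 TPM. Psme2b, a near copy of the activator gene Psme2, averaged 0.432 ± 0.189 and 0.377 ± 0.152 TPM. Psmc3ip, which encodes an interacting protein rather than a subunit, averaged 0.195 ± 0.0822 and 0.172 ± 0.0950 TPM.

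The tissue label is liver and the cell type label hepatocyte. The 8 hepatocyte markers summed to 30881 to 50591 TPM per library, and markers of other liver cells were also present. Those of Kupffer cells, the liver macrophages, summed to 66.4 to 146 TPM in controls and 60.2 to 257 TPM with selenium. Control 5 and selenium 3 stood apart, with cholangiocyte markers at 269 and 133 TPM against 16.0 to 37.2 TPM elsewhere, and neutrophil markers at 92.4 and 66.8 TPM. A few genes carried both sums there, as Spp1 made up 266 and 129 TPM of the former, and S100a8 and S100a9 nearly all of the latter. The cholangiocyte keratin Krt7 was at 0.17 and 0.14 TPM in these livers and the neutrophil gene Ly6g at 0 and 0.23 TPM. Mitochondrial-encoded genes held 17.3 ± 3.43% of TPM in controls and 11.6 ± 1.97% with selenium. The clock output gene Dbp, which cycles over the day, ran from 0.72 to 53.6 TPM and was over 10 TPM in controls 5 and 6 and selenium 1 and 5. In bulk tissue, fewer cells of a type and less RNA per cell cannot be told apart.

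As background, the core particle is a barrel of stacked rings. Its outer rings are built of alpha subunits, which gate the channel, and its inner rings of beta subunits, of which Psmb5, Psmb6 and Psmb7 carry the cutting sites. The regulatory particle caps the barrel, with Psmc ATPases that unfold the substrate and Psmd subunits that bind ubiquitin and remove it. Psme proteins are alternative caps. Under interferon, Psmb8, Psmb9 and Psmb10 replace the catalytic subunits in the immunoproteasome, which favours peptides for antigen presentation. Transcripts of most subunits are driven together by the transcription factor NRF1, encoded by Nfe2l1, when proteasome activity is short. The hepatocyte, which makes and turns over much protein, depends on this machinery.

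Proteasome transcripts were abundant in every liver. The 40 kept members had a median level of 50.5 TPM, against 6.05 TPM for all kept genes, and the members together held 0.190 to 0.315% of all TPM. Among the 14 constitutive core subunits, mean levels ran 5.58-fold, from 28.5 ± 5.66 TPM for Psma2 to 159 ± 40.2 TPM for Psma7 (SD, n = 12), both alpha ring subunits. Psma2 was the lowest of the 14 in 12 of 12 libraries, so its place at the bottom did not depend on the mouse. The top place was shared, with Psma7 highest in 7 libraries and Psmb6, the subunit with caspase-like activity, in 5. The catalytic subunits were unequal, as Psmb6 averaged 150 ± 31.2 TPM, Psmb7 (trypsin-like activity) 105 ± 13.1 TPM and Psmb5 (chymotrypsin-like activity) 35.0 ± 7.69 TPM.

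By highest over lowest mean, levels were more even among the regulatory particle subunits that the symbol rule found than in the core. The core ratio rested on Psma2 and Psmb5, as the next lowest constitutive core subunit, Psmb2, averaged 64.8 TPM. The 17 regulatory particle members ran 3.71-fold, from Psmd11, a scaffold subunit, at 25.1 TPM to Psmd4, a ubiquitin receptor, at 93.2 TPM. Subunits under other symbols are not among them. Psmd4 was the highest in 11 of 12 libraries and the ATPase Psmc3 in the other. The chaperones that assemble this particle were lower, with Psmd5 at 11.8, Psmd9 at 8.80 and Psmd10 at 7.01 TPM. Of the alternative caps, Psme1 and Psme2, which together form the interferon-induced activator ring, averaged 145 and 121 TPM. Psme3, the nuclear activator of the same family, averaged 14.4 TPM and Psme4, a large single-chain activator, 8.07 TPM.

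**Figure D1:**
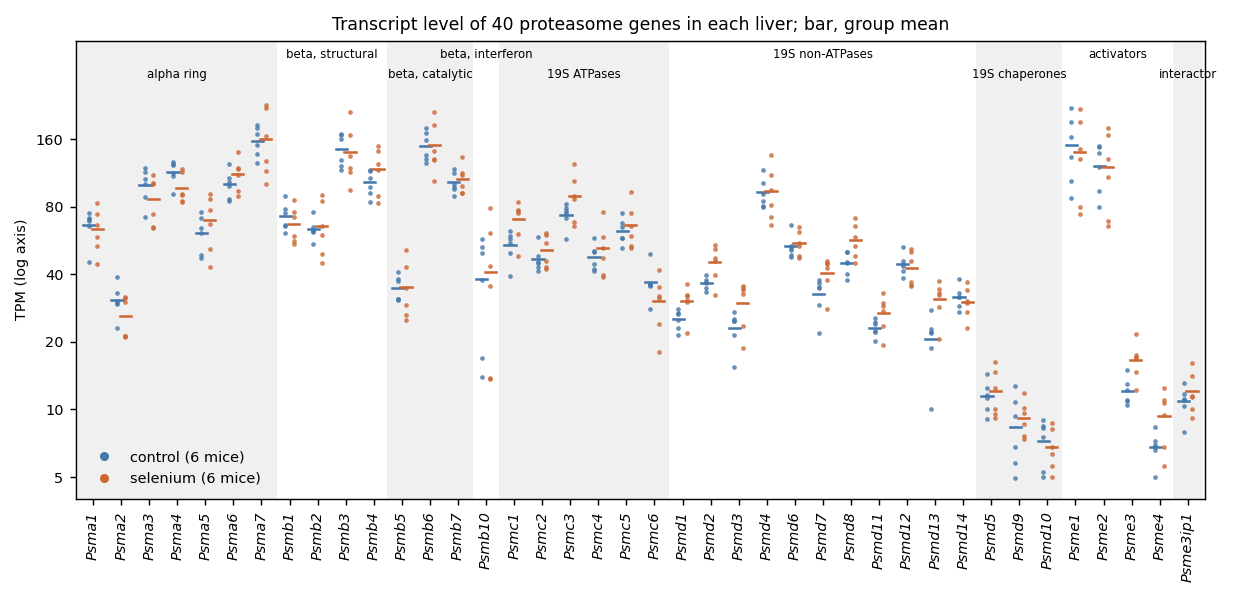
TPM of the 40 kept proteasome genes on a log axis, 1 point per liver, with controls in blue and selenium in orange, bars at the group means and shading by role in the complex. Points of both groups overlap for every gene, Psmb10 spreads widest, and the chaperones, Psme3, Psme4 and Psme3ip1 lie lowest.

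With selenium, no proteasome gene passed the test. More regulatory than core genes had a positive change, and the difference between the classes was not tested. By limma on log2(TPM + 1), with p-values adjusted over all genes by Benjamini-Hochberg and a threshold of 0.05, 0 of 15 core and 0 of 25 regulatory members passed. Of all kept genes 33 passed, 2 higher (0.02%) and 31 lower (0.311%), which is 0.331% in either direction. At an unadjusted p under 0.05, 6 of 25 regulatory members were higher and 0 lower, and 0 of 15 core members were either, where all genes gave 7.01% higher and 11.4% lower. This regulatory count moved with the scaling, to 11 under median-of-ratios scaling, 11 under quantile normalization and 2 after rescaling without mitochondrial-encoded genes. The number of all genes at that level that were higher moved with it, from 700 to 1535, 1338 and 367. A per-gene exact permutation test over the 924 ways to assign 6 of 12 libraries also passed 0 members, with 5 regulatory members at an unadjusted p under 0.05. In 0 of the 40 members were the groups fully separate, against 1.63% of all genes. The log2 change, selenium minus control, was above 0 in 6 of 15 core and 18 of 25 regulatory members, and in 45.4% of all genes. Its median was -0.04 in the core, 0.12 in the regulatory genes and -0.03 over all genes.

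By role, the alpha ring had a positive change in 2 of 7 genes with a median of -0.07, and the ATPases in 5 of 6 with a median of 0.10. The non-ATPase members of the regulatory particle were positive in 8 of 11, with a median of 0.26. ATPase and non-ATPase members together were positive in 13 of 17, with a median of 0.20. The core median moved across 0 with the scaling, to 0.04 under median-of-ratios scaling. The median over all genes moved with it, from -0.03 to 0.04. After rescaling TPM without mitochondrial-encoded genes, whose share was lower with selenium, the medians were -0.13 for the core and 0.03 for the regulatory genes. The median over all genes was then -0.11. Positive changes were seen in 14 of 25 regulatory members and in 3311 of all 10319 genes kept under that rescaling.

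**Figure D2:**
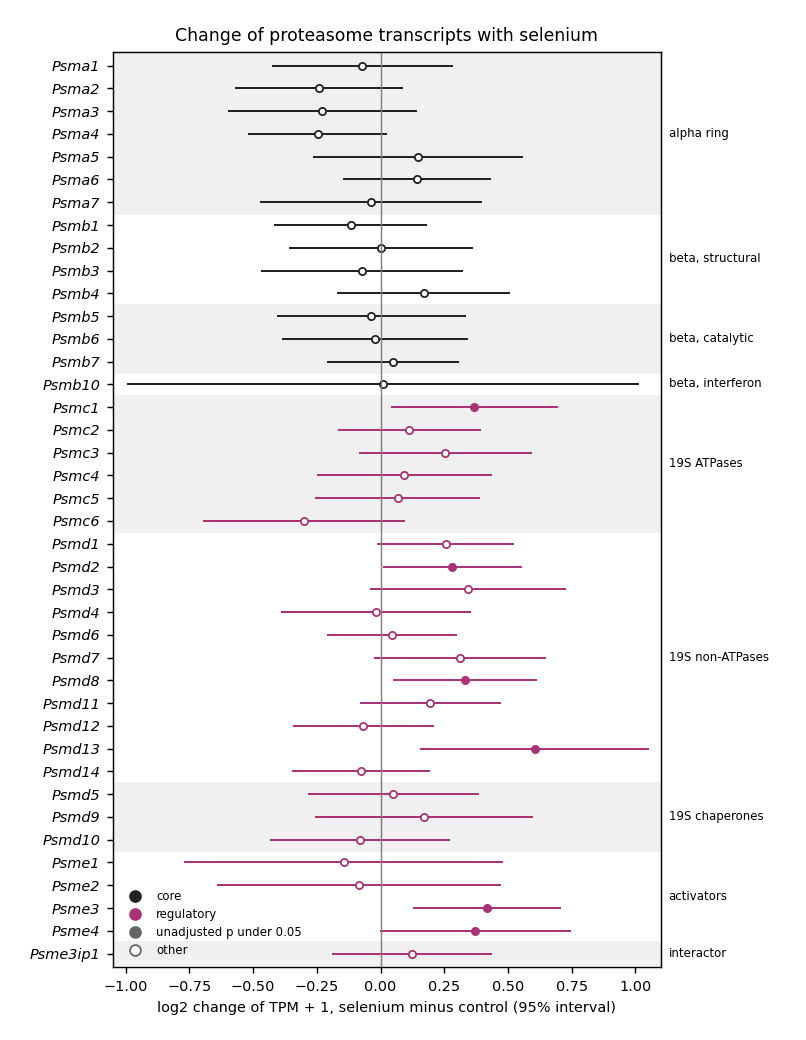
Log2 change of TPM + 1, selenium minus control, for each of the 40 kept members with its 95% interval from limma (6 livers per group). Filled points are the 6 members at an unadjusted p under 0.05, all regulatory and all to the right of 0, and the interval of Psmb10 is the widest.

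The 6 regulatory members at an unadjusted p under 0.05 were 2 alternative caps, 3 non-ATPase subunits and 1 ATPase. Psme3 ran from 10.5 to 15.1 TPM in controls (median 11.6) and from 12.2 to 21.6 TPM with selenium (median 17.0). All 6 selenium livers lay above the control mean and 4 above the highest control, but the lowest, selenium 5, lay within the control range. Its means were 12.1 ± 1.72 and 16.6 ± 3.13 TPM, a log2 change of 0.42 with SE 0.13 and a 95% interval of 0.13 to 0.71 (limma adjusted p = 0.140, exact permutation p = 0.0130).

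Psmd13, a lid subunit of the regulatory particle, had the largest change of the members. It ran from 10.0 to 27.9 TPM in controls (median 22.1) and from 20.6 to 37.3 TPM with selenium (median 32.7). The lowest value was in control 5, one of the livers with high Spp1, S100a8 and S100a9, and 5 of 6 selenium livers exceeded the highest control. The means of 20.6 ± 5.95 and 31.1 ± 5.84 TPM gave a log2 change of 0.61 with an interval of 0.16 to 1.05 (limma adjusted p = 0.158, exact permutation p = 0.0173). Without control 5 and selenium 3 the change was 0.37 (adjusted p = 0.332).

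Psmd8, another lid subunit, ran from 37.8 to 50.3 TPM in controls (median 45.3) and from 45.0 to 71.1 TPM with selenium (median 56.1), with 4 selenium livers above every control. Its log2 change was 0.33 (limma adjusted p = 0.199, exact permutation p = 0.0281). Psmc1, an ATPase of the ring that pulls the substrate in, ran from 39.5 to 62.3 TPM (median 56.3) and from 48.5 to 83.7 TPM (median 75.9). Here too 4 of 6 selenium livers lay above the highest control, while selenium 5 was below the control mean, and the change was 0.37 (limma adjusted p = 0.218, exact permutation p = 0.0346).

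Psmd2, the base subunit that docks ubiquitin shuttles, ran from 33.4 to 39.9 TPM in controls (median 36.7) and from 32.2 to 54.3 TPM with selenium (median 46.5), a change of 0.28 (limma adjusted p = 0.249, exact permutation p = 0.0411). Controls were tight, at 36.5 ± 2.25 TPM, and the spread lay in the selenium livers, at 45.2 ± 8.12 TPM. Psme4 ran from 5.00 to 8.33 TPM (median 6.84) and from 5.58 to 12.5 TPM (median 10.1), a change of 0.37 (limma adjusted p = 0.270, exact permutation p = 0.0671). Of the 6, all but Psmc1 were highest in selenium 3, the liver with 129 TPM of Spp1 and 257 TPM of Kupffer markers. The 8 Kupffer markers all had positive changes, 0 of them past the test, none at 0 in all libraries, and the part of these cells in the result was not tested.

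How many regulatory members reached an unadjusted p under 0.05 depended on single livers. Of the 12 fits with 1 liver left out, Psme3 and Psmd13 stayed at that level in 12 and Psmd8 in 9. Psmc1 stayed in 6 of these fits, and Psmd2 and Psme4 in 3 each. The fits share most of their livers. The count of 6 became 2 without control 2, selenium 3 or selenium 4, 3 without control 5 and 10 without selenium 5. It was 2 without both control 5 and selenium 3, and 0 with the first 2 principal components of the clock genes as covariates. In the clock fit, the changes of Psme3 and Psmd13 were 0.20 and 0.50. Of 11 kept clock genes, 1 was higher with selenium and 1 lower at an unadjusted p under 0.05. Nr1d1 averaged 9.26 and 17.3 TPM in control and selenium livers, and Cry1 5.80 and 3.09 TPM (limma adjusted p = 0.220 and 0.184). How far the components took up the group difference was not tested. Of all genes, 700 were higher at that level in the main fit, 440 without control 2 and 122 with the clock components. For the other fits in this paragraph that number is not given. The median log2 change over all genes, -0.03 in the main fit, was -0.05 without selenium 3 or selenium 4. It was -0.03 without control 5, 0.01 without selenium 5 and -0.06 without both control 5 and selenium 3. Among the 4 livers with Dbp over 10 TPM, the difference between group means on the log2 scale was 0.05 for Psme3, 0.06 for Psmd8, 0.12 for Psmc1 and 0.00 for Psmd2, against 0.60, 0.47, 0.49 and 0.42 among the 8 others. That of Psmd13 was 0.51 and 0.65 and that of Psme4 0.35 and 0.38, so their values lay closer together. The livers with high Dbp are 2 of each group, and the difference between the strata was not tested.

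Promoter sequences are shown for these 6 genes, as the members with the smallest p, and for Psmb5 and Psmb6, which carry the letters of the antioxidant response element that NRF1 and its relative NRF2 bind. RefSeq's table (GRCm38.p6) had an entry for 37 of the 44 members, 13 core and 24 regulatory. Psma8, Psmb1, Psmb2, Psmb7, Psmc3, Psmd3 and Psmd7 had none. The 37 include Psmb11, Psme2b and Psmc3ip, which were not kept for the test. Each sequence is the 120 bases before the transcription start, read along the gene, and capitals mark a match on either strand. The letters CCGGAAG, an ETS factor site that holds the shorter ETS core GGAAG, occurred within 250 bases upstream in 11 of 24 regulatory and 1 of 13 core members, against 17.0% of the kept genes and 7.83% of all genes in the table. The 11 include Psmc3ip, which is not a subunit. In Psme3, Psmc1, Psmd2 and Psme4 a match is in capitals, and no full CCGGAAG lies in the windows of Psmd13 and Psmd8. The shorter GGAAG does lie in both, at -90 in Psmd13 and, on the reverse strand, at -16 in Psmd8. It occurred in 23 of 24 regulatory and 11 of 13 core members, against 73.0% of the kept genes.
Psme3, chr11:101316093-101316212, plus strand: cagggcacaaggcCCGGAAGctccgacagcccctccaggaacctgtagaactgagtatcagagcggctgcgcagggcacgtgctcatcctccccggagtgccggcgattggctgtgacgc
Psmd13, chr7:140882274-140882393, plus strand: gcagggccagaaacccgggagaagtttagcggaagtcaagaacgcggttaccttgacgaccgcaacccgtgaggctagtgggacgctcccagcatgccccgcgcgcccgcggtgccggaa
Psmd8, chr7:29180674-29180793, minus strand: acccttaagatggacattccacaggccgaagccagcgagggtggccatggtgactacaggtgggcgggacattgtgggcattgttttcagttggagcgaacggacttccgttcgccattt
Psmc1, chr12:100110082-100110201, plus strand: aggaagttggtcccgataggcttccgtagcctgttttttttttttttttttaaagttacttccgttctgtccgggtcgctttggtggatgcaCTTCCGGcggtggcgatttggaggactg
Psmd2, chr16:20651532-20651651, plus strand: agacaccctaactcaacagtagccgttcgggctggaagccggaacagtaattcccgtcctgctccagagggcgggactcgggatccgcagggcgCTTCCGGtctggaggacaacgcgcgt
Psme4, chr11:30771655-30771774, plus strand: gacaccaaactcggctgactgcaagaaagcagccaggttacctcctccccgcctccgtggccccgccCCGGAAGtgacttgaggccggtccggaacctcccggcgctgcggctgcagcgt

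In the core, TGACNNNGC, the short form of the antioxidant response element, was found in 2 of 13 members, both catalytic, and in 3 of 24 regulatory members (Psmc6, Psmd12 and Psmd9), against 14.1% of kept genes. These letters lie within the looser form TGANNNNGC, found in 6 of 13 core and 9 of 24 regulatory members and in 41.9% of kept genes.
Psmb5, chr14:54617996-54618115, minus strand: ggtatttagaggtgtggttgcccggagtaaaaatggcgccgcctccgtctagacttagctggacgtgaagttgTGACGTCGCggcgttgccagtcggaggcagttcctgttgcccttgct
Psmb6, chr11:70525237-70525356, plus strand: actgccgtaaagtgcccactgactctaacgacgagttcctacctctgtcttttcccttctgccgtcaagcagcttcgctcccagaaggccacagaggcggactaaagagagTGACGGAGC

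Psmb5 and Psmb6 both had log2 changes near 0. Psmb5 ran from 30.8 to 41.1 TPM in controls (median 34.3) and from 25.0 to 51.5 TPM with selenium (median 32.0), with group means of 35.0 ± 4.52 and 35.0 ± 10.5 TPM. The selenium livers lay on both sides of the control range, and the interval of the log2 change was -0.40 to 0.33. Psmb6 ran from 125 to 179 TPM (median 148) and from 104 to 213 TPM (median 136), with an interval of -0.38 to 0.34. The third catalytic subunit, Psmb7, ran from 89.5 to 118 TPM (median 99.6) and from 92.2 to 133 TPM (median 105), with an interval of -0.21 to 0.30.

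The remaining core genes leaned either way without passing the test. Psma4, of the alpha ring, had the smallest p of the core. It ran from 91.1 to 127 TPM in controls (median 118) and from 83.7 to 118 TPM with selenium (median 90.6), and 5 of 6 selenium livers lay below the control mean. The log2 change was -0.25 with an interval of -0.51 to 0.02 (limma adjusted p = 0.316, exact permutation p = 0.0519). Psma7 ran from 125 to 186 TPM (median 160) and from 101 to 228 TPM (median 147), so the selenium livers reached beyond the controls on both sides. Of the structural beta subunits, Psmb3 ran from 117 to 169 TPM (median 145) and from 95.4 to 212 TPM (median 127), a log2 change of -0.07. Psmb4 ran from 84.4 to 117 TPM (median 103) and from 83.2 to 150.0 TPM (median 120.3), a change of 0.17.

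Of the other regulatory genes, Psmd4 ran from 79.97 to 117 TPM in controls (median 88.3) and from 66.1 to 136 TPM with selenium (median 88.2), a log2 change of -0.02. Psmc3 ran from 57.3 to 82.7 TPM (median 76.0) and from 65.7 to 124 TPM (median 87.8), a change of 0.25. Psmc6 was the ATPase with a negative change, -0.30, at 36.9 ± 6.92 and 30.4 ± 8.31 TPM, and its lowest value, 18.1 TPM, was in selenium 2. Its transcript has the lowest GC content of the kept members, 37.0%, and after a correction for GC content the change was -0.04. The assembly chaperone Psmd9 ran from 4.93 to 12.8 TPM (median 8.05) and from 7.38 to 11.8 TPM (median 9.14), a change of 0.17, with the selenium livers inside the control range. Psme3ip1, a partner of Psme3 that is not a subunit, ran from 7.95 to 13.1 TPM (median 11.1) and from 9.18 to 16.1 TPM (median 11.5), a change of 0.12. For 37 of the 40 members the interval reached less than 0.5 to either side of the estimate.

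In some livers the core members went together. In others they were split, with 5 of 15 above their own 12-liver mean in control 1 and 6 of 15 in control 2. All 15 core genes lay above their own 12-liver mean in control 3 and selenium 4, and 0 of 15 in control 6, selenium 1 and selenium 5. Of all kept genes 57.3% and 64.6% lay above their mean in control 3 and selenium 4, and 61.8%, 36.0% and 14.2% in the other 3. The regulatory genes did not always follow. In control 6, 10 of 25 were above their mean. In selenium 3, 4 of 15 core and 15 of 25 regulatory genes were above their mean, beside 64.1% of all kept genes. In control 5 the counts were 10 of 15 and 9 of 25, beside 46.2%. Selenium 5 was low for 25 of 25 regulatory genes. Selenium 1 held the lowest value of 8 of 15 core genes. The coefficient of variation over the 12 livers had a median of 20.7% for the members and 23.1% for all kept genes.

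**Figure D3:**
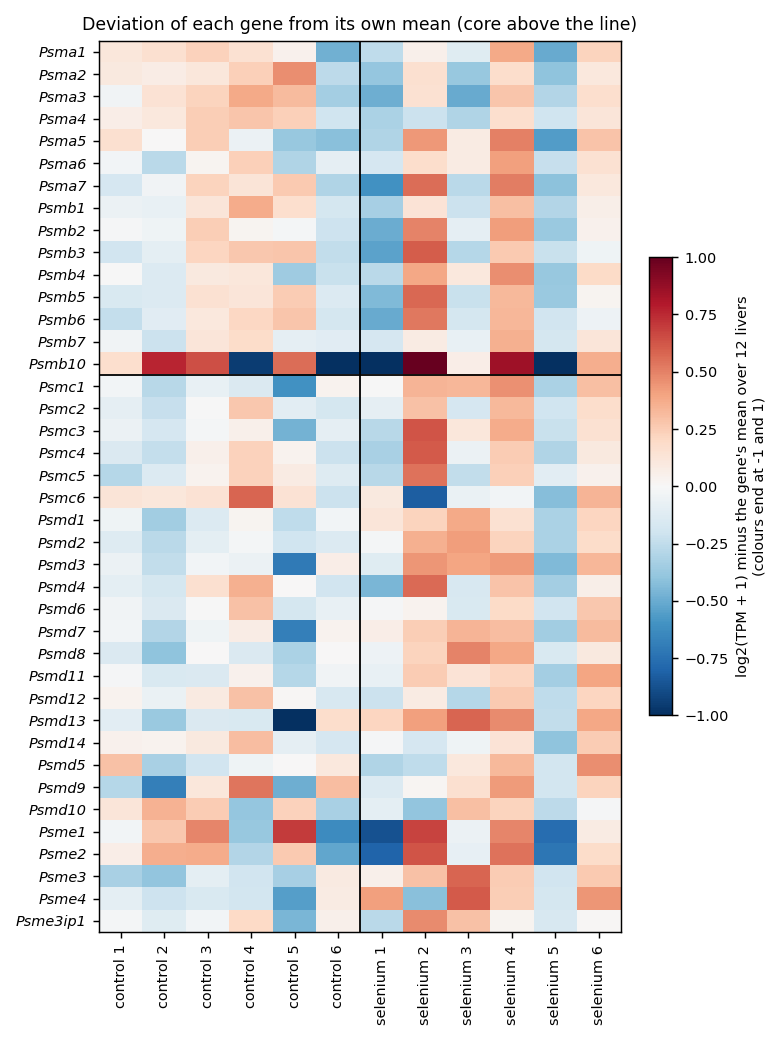
Deviation of each of the 40 kept members (rows) from its own mean over 12 livers (columns), in log2 units, with core genes above the horizontal line and controls left of the vertical line. Whole columns are blue or red, as in selenium 5 and selenium 4, and the regulatory rows are redder in selenium 3 than the core rows.

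The summed TPM of the 17 regulatory particle members was divided by that of the 14 constitutive core subunits. This gave a ratio of 0.580 ± 0.0633 in controls and 0.659 ± 0.0635 with selenium. Controls ran from 0.490 in control 5 to 0.677 in control 6, and selenium livers from 0.584 to 0.735. The groups overlapped, and as a score over the members the ratio was not tested. The 4 livers with Dbp over 10 TPM were spread over the range. Selenium 1 had the highest ratio of all, control 6 the highest of the controls, control 5 the lowest of all and selenium 5 a ratio of 0.625.

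In the authors' deposited table, 8 regulatory members were higher with selenium at an adjusted p under 0.05, 0 core members were, and 0 members were lower. Among all kept genes that table calls 6.97% higher and 2.9% lower, with positive changes in 58.2%. The 8 hold all 6 genes at an unadjusted limma p under 0.05 (100% of those, 75% of the authors' calls), and Psmd1 and Psmd5 besides. The smallest adjusted p-values in the authors' deposited table were 0.00188 for Psmd2 (log2 change 0.60), 0.00188 for Psme3 (0.50) and 0.00373 for Psmd8 (0.42). Both sets of values come from the same livers and are not independent. The value in the authors' deposited table was larger than limma's in 40 of 40 members, by a median of 0.10. Over all kept genes its median was 0.06 against -0.03. The largest gap was in Psmd5, with 0.40 in the authors' deposited table (adjusted p = 0.0223) and 0.05 by limma. Psmd5 ran from 9.04 to 14.4 TPM in controls (median 11.4) and from 9.19 to 16.3 TPM with selenium (median 11.3), so its deposited TPM barely differed between groups.

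**Figure D4:**
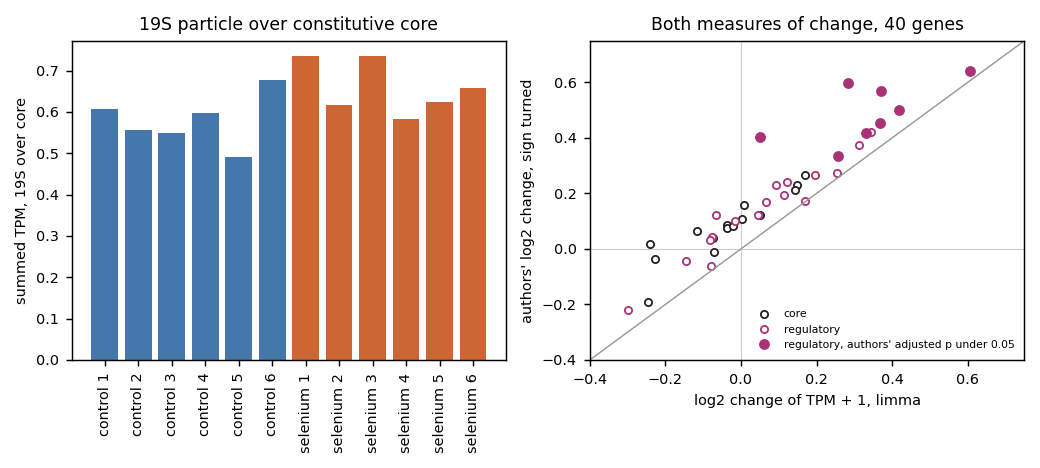
Left, summed TPM of the 17 regulatory particle members over that of constitutive core subunits, 1 bar per liver from 0, with selenium 1 and selenium 3 highest and control 5 lowest. Right, log2 change in the authors' deposited table against that by limma for the 40 members, with all points above the diagonal and the 8 genes called in that table filled.

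Psmb10, Psme1 and Psme2, the members that interferon induces, varied most between livers and not by group. Their coefficients of variation were 54.8%, 36.2% and 31.3%, the highest of the kept members. Psmb10 ran from 14.0 to 57.7 TPM in controls (median 43.9) and from 13.7 to 79.2 TPM with selenium (median 39.5), a 5.79-fold range over the 12 livers. Its log2 change was 0.01 with an interval of -0.99 to 1.01, the widest of the kept members, and a difference inside it was not detectable in these livers. Psme1 ran from 87.9 to 222 TPM (median 149) and from 74.1 to 219 TPM (median 138), and Psme2 from 79.9 to 149 TPM (median 130) and from 65.8 to 179 TPM (median 120). Reads of Psme2 may be shared with its near copy Psme2b, so its level is uncertain.

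The same 4 livers, control 4, control 6, selenium 1 and selenium 5, were the lowest for all of Psmb10, Psme1 and Psme2, for no other kept member and for 1.78% of all kept genes. They were also the lowest 4 for 13 of 19 interferon-inducible genes, among them Irf1 and Tap1. The mean deviation of those 19 genes on the log2 scale was -0.54, -0.77, -0.79 and -1.48 in these livers and above 0 in the 8 others. Psmb10 over Psmb7, the subunit it replaces, was a TPM ratio of 0.144 to 0.149 in the 4 livers and 0.357 to 0.717 in the others. Of these 4 livers, 3 had Dbp over 10 TPM and control 4 had 1.12 TPM. Control 5, at 15.7 TPM of Dbp, was not among them, with Psmb10 at 50.0 TPM. Among the 8 livers with low Dbp the log2 difference of Psmb10 was 0.47, and among the other 4 it was -0.91. No match to the core of the interferon-stimulated response element or to TTCNNNGAA, the gamma-activated sequence, lay within 250 bases upstream of these 3 genes. Among kept genes these matches are rare, at 3.30% and 6.99%, so their absence from 3 genes says little.

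**Figure D5:**
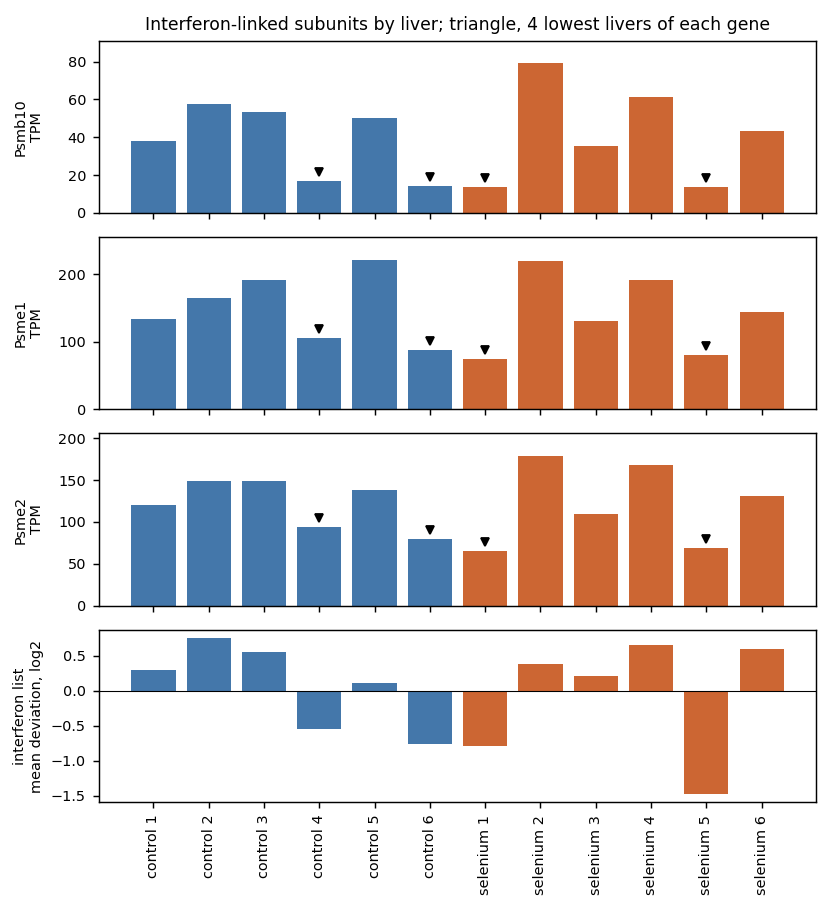
TPM of Psmb10, Psme1 and Psme2 in each liver, bars from 0, with controls in blue, selenium in orange and triangles over the 4 lowest livers of each gene, and below them the mean log2 deviation of 19 interferon-inducible genes. The triangles fall on the same 4 livers in all 3 panels, which are also the livers with a negative mean in the lowest panel.

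Around the proteasome, 0 genes passed the limma test in any of the lists that follow, and values for genes with the smallest p of each are given as log2 changes with limma's adjusted p. Nfe2l1, the regulator of proteasome genes, had mean levels of 20.7 ± 3.61 and 27.1 ± 5.20 TPM in control and selenium livers, a change of 0.37 (limma adjusted p = 0.217). In that regulator list, 1 of 11 kept genes was higher and 1 lower at an unadjusted p under 0.05, the latter being Mafg, a DNA-binding partner of NRF1, at 9.16 ± 1.74 and 5.34 ± 0.757 TPM (limma adjusted p = 0.0514). The list of p97, the ATPase that extracts ubiquitinated proteins, and its cofactors had 4 of 12 higher and 0 lower, led by Nploc4 (0.63, adjusted p = 0.129), a cofactor, and Vcp (0.45, adjusted p = 0.170), which encodes p97. The authors' deposited table calls 5 of these 12 higher and 0 lower, against 6.97% and 2.9% of all kept genes. In the regulator list it calls 1 of 11 higher and 1 lower.

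Of 7 kept genes for assembly factors and proteasome-binding proteins, 0 were higher and 1 lower at an unadjusted p under 0.05. That gene was Psmg4, a chaperone of the alpha ring (-0.48, adjusted p = 0.189), followed by Ecpas, an adaptor protein (0.29, adjusted p = 0.464). Of 9 kept receptors, ligases and deubiquitinases bound to the proteasome, 1 was higher, Ube3c (0.51, adjusted p = 0.149), a ubiquitin ligase, and 2 lower, among them Zfand5 (-0.47, adjusted p = 0.147), a proteasome-binding activator. The ubiquitin shuttles had 1 of 6 higher and 0 lower, with Rad23b at 0.30 (adjusted p = 0.176) and the protease Ddi2, which processes NRF1, at 0.31 (adjusted p = 0.354). Genes of ubiquitin and its activating enzymes had 0 of 7 higher and 2 lower, among them Uba3 (-0.38, adjusted p = 0.242), which activates the ubiquitin-like NEDD8. For comparison, subunits of the chaperonin TRiC, another ring complex, had 1 of 8 higher and 0 lower. The 19 interferon-inducible genes had 0 in either direction. The authors' deposited table calls 0 of the 7 assembly factors and binding proteins higher, 1 of 6 shuttles and 1 of 7 ubiquitin genes. It calls 1 of 9 receptors, ligases and deubiquitinases higher, 1 of 8 TRiC subunits and 0 of the 19 interferon-inducible genes. In these lists it calls 0 genes lower.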

How the data were processed

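Per the submitters' processing notes, the authors used HISAT2 2.1.0, RSEM 1.2.8 and DESeq2 with the GRCm39 build. Strand use and RNA selection were not stated in any source used. The authors deposited TPM per gene and library, whose values in the series table equalled those of the single-library tables. Since TPM fixes the total of a library, a change in abundant genes moves all others, and depth is lost. The authors also deposited log2 fold changes, control against selenium, with raw and adjusted p-values. Their sign was turned here.

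TPM was tested as log2(TPM + 1) with limma 3.58.1 (R 4.3.3, eBayes with trend, 6 against 6 libraries, no covariates, two-sided) over genes with at least 1 TPM in 6 libraries, and the steps were tested on simulated data. Plots used Python 3.11.15 and matplotlib 3.10.9. No count test was run. Members and gene lists were chosen with earlier results of these data known. Of the members, the text gives library values for the highest, the smallest p and the largest change in each role, and for Psmb5, Psmb6, Psmb7, Psmb10, Psme1, Psme2 and Psme3. Psma2, Psmc6, Psmd1, Psmd2, Psmd8, Psme4, Psma1 and Psmd6 were named after their values were seen. Of the other proteasome and ubiquitin lists the 2 genes of smallest p are named, except for 1 gene not reported here. RefSeq promoters of GRCm38.p6 were searched for 14 motifs on both strands, and their coordinates were not joined to the authors' build. Alternatives changed the pseudocount, filter, scaling, variance model, covariates and libraries. Paaf1 was not analysed here.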

Additional observations from a re-analysis of the deposited data

Results flagged for a closer look

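In the controls, Psma1, of the alpha ring, stood at 45.35 TPM in control 6, well below the next lowest control at 65.94 TPM. Psmd6, of the regulatory particle, stood at 66.34 TPM in control 4, above the next highest control at 53.77 TPM. In each case 1 liver lay far from the other 5 for the size of the group's range. These were 2 of 80 groups of 6 livers examined, where chance flags about 1 in 20.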

How the results depend on the processing

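TPM holds no depth, so signal limits only show as spread between livers. In 29 alternatives, of which the corrections for GC content and transcript length and the fit without control 5 and selenium 3 were chosen after seeing the data, 0 core members passed. Of the regulatory members 1 passed under median-of-ratios scaling (Psme3, log2 change 0.49, adjusted p = 0.0468), 1 with array weights (Psme3, 0.46, adjusted p = 0.0464) and 1 among the 8 libraries with Dbp under 10 TPM (Psmd13, 0.65, adjusted p = 0.0483), all by limma. Over the alternatives, the adjusted p of Psme3 ran from 0.0464 to 0.604 and that of Psmd13 from 0.0483 to 0.504. Psme3, Psmd13, Psmd8, Psmc1, Psmd2, Psme4, Psmd1, Psmc3, Psmb4, Psma2, Psma4, Psmc6 and Nfe2l1 had the same sign in all 29, though the GC correction left -0.0355 of the -0.30 of Psmc6 and -0.0418 of the -0.24 of Psma2.

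Against 33 genes of all, 2 of them higher, 1 passed with no filter, 90 under median-of-ratios scaling (52 higher), 12 under quantile normalization (2 higher), 191 after rescaling without mitochondrial-encoded genes (6 higher), 56 with robust eBayes, 255 with array weights (114 higher), 3 with 2 clock components, 0 by the exact permutation test, 59 after the length correction (21 higher) and 7 without control 5 and selenium 3. Among the 8 libraries with Dbp under 10 TPM, 47 passed (34 higher). Leaving out 1 library gave 7 (control 2) to 171 (control 6). With the replicate block 3 genes passed, 0 core and 0 regulatory members among them. The correlations of same-numbered libraries ran from -0.14 to 0.11. Libraries with different numbers were not compared, so whether the numbers pair the mice was not tested.

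The median change of the regulatory members was 0.0118 with 2 clock components and 0.25 among libraries with low Dbp, where that of the core was 0.16. Over all genes the median was -0.09 with 2 clock components and 0.06 with low Dbp. With 1 library left out, the core median ran from -0.15 to 0.08 and the regulatory one from 0.08 to 0.19. Of the 24 members tracked by name, these turned in sign, and the cause was not tested. Of the 16 other kept members, 3 also turned under median-of-ratios scaling, 1 under quantile normalization, 4 without mitochondrial-encoded genes, 2 with array weights, 5 with clock components, 4 after the GC correction, 1 after the length correction, 0 to 3 with 1 library left out and 0 in the 2 fits on fewer livers (low Dbp, and without control 5 and selenium 3). Median-of-ratios scaling gave 0.0442 for Psma7, 0.0077 for Psmb3, 0.0429 for Psmb5, 0.0598 for Psmb6 and 0.0636 for Psmd4. Quantile normalization gave -0.0008 for Psmb10 and 0.0142 for Psmd4. Rescaling without mitochondrial-encoded genes gave -0.0861 for Psmb10, -0.0470 for Psmb7 and -0.0392 for Psmd5. Array weights gave 0.0559 for Psma7, -0.0325 for Psmb10, 0.0295 for Psmb5, 0.0377 for Psmb6 and 0.0258 for Psmd4. The 2 clock components gave -0.0195 for Psmb7, -0.0572 for Psmd5, -0.125 for Psmd9 and -0.0145 for Psme3ip1. The libraries with low Dbp gave 0.19 for Psma7, 0.0891 for Psmb3, 0.18 for Psmb5, 0.17 for Psmb6, 0.13 for Psmd4, 0.21 for Psme1 and 0.19 for Psme2. The GC correction gave -0.0019 for Psmb10. The length correction gave 0.0429 for Psma7, 0.0469 for Psmb3, 0.0680 for Psmb5, 0.0951 for Psmb6, 0.0298 for Psmd4 and 0.0141 for Psme2. Without control 5 and selenium 3, Psma7 was at 0.0633, Psmb3 at 0.0243, Psmb5 at 0.0522, Psmb6 at 0.0647, Psmd4 at 0.0126 and Psme3ip1 at -0.0026. With 1 library left out, the ranges were -0.152 to 0.0803 for Psma7, -0.202 to 0.0268 for Psmb3, -0.154 to 0.0482 for Psmb5, -0.128 to 0.0769 for Psmb6, -0.0166 to 0.0910 for Psmb7, -0.23 to 0.26 for Psmb10, -0.132 to 0.0733 for Psmd4, -0.0369 to 0.116 for Psmd5, -0.295 to 0.0147 for Psme1 and -0.218 to 0.0683 for Psme2.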
